A study of Mus musculus with 33 samples.

Results

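The enzymes and binding proteins that copy, set, remove and read DNA methylation were followed as mRNA through 11 populations of mouse bone marrow. The 9 genes were chosen by symbol: Dnmt1 and Uhrf1, Dnmt3a and Dnmt3b, Tet1, Tet2 and Tet3, Tdg, and Mbd2. Each symbol matched 1 Ensembl ID among the 56748 of the table of raw read counts, and all 9 were among the 20464 genes that passed the filter on low counts. RNA-seq of polyadenylated RNA gave 33 libraries, 3 for each population. By their labels, with the usual meaning of the short names, these were LT-HSC and ST-HSC (long-term and short-term haematopoietic stem cells), MPP (multipotent progenitors), CMP, GMP and MEP (common myeloid, granulocyte-monocyte and megakaryocyte-erythroid progenitors), CLP (common lymphoid progenitors), the mature fractions CD11b+ cells (myeloid), B220+ cells (B lineage) and CD3e T cells, and BM, described as bone marrow total RNA with no further word on a sort. Per the labels, lineage depletion came before the sort of stem and progenitor cells and not of mature cells, so in comparisons of mature with immature cells this step and the cell type cannot be told apart. The labels name no treatment, genotype or transgene, and strain, sex, age, number of animals and sort gates are not given in the sources used here. Nothing in the labels says that the 3 libraries of a population came from separate animals, so p-values here speak only of the spread among libraries, part or all of which can be technical. The question of the study was the role of epigenetic regulators when stem cells choose a fate, and the comparisons below follow the steps of the hierarchy.

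Methylation of cytosine at CpG sites is copied at each cell division: UHRF1 binds the hemimethylated DNA behind the replication fork and brings in DNMT1, which methylates the new strand. DNMT3A and DNMT3B set methylation at sites that had none, while the TET enzymes oxidise methylcytosine, using oxoglutarate as cofactor, and TDG cuts out the most oxidised forms so that base excision repair can put back plain cytosine. MBD2 binds methylated CpG sites and brings the NuRD repressor complex to them. In blood formation DNMT3A and TET2 are best known as genes mutated early in human clonal haematopoiesis and leukaemia, and mouse stem cells that lack Dnmt3a or Tet2 gain in competition with normal ones.

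The 9 genes lie on 8 chromosomes: Dnmt1 (ENSMUSG00000004099) on chromosome 9, Uhrf1 (ENSMUSG00000001228) on 17, Dnmt3a (ENSMUSG00000020661) on 12, Dnmt3b (ENSMUSG00000027478) on 2, Tet1 (ENSMUSG00000047146) and Tdg (ENSMUSG00000034674) on 10, Tet2 (ENSMUSG00000040943) on 3, Tet3 (ENSMUSG00000034832) on 6 and Mbd2 (ENSMUSG00000024513) on 18. Upstream windows came from RefSeq (build GRCm38.p6) and were matched by symbol for 8 of the 9; Mbd2 is not shown. The windows of Uhrf1, Dnmt1 and Tdg are shown because the levels of these 3 genes followed those of the DNA replication genes over the 11 populations (values below), and E2F factors, whose letters were searched for, are known to drive replication genes. Each run is the 250 bases upstream of an annotated start, 5′ to 3′ on the strand of the gene, and capitals mark a match, on either strand, to the E2F letters TTGGCGC, or to TTGCCGC, or to TTCGCGC, or to TTCCCGC.
Uhrf1, first window, chr17:56303087-56303336, plus strand: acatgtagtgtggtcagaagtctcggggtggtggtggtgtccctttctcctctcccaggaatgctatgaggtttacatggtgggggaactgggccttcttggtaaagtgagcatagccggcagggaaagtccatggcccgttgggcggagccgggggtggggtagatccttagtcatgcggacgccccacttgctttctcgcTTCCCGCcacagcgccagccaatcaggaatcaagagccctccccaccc
Uhrf1, second window, chr17:56304063-56304312, plus strand: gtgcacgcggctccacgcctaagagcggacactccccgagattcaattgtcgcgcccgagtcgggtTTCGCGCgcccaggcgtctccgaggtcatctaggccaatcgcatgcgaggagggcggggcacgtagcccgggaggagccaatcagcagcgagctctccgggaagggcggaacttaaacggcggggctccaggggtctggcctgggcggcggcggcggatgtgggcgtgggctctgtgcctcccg
Dnmt1, second window, chr9:20952980-20953229, minus strand: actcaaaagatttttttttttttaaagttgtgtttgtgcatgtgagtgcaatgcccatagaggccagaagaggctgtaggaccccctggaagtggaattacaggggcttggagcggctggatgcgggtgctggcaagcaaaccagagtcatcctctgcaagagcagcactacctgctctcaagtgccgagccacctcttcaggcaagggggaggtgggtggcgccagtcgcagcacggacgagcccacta
Tdg, chr10:82629588-82629837, plus strand: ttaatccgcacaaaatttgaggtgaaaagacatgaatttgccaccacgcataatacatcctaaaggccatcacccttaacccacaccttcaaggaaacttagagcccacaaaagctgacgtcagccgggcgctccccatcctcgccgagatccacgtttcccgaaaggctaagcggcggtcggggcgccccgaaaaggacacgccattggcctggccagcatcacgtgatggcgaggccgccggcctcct
Both Uhrf1 windows held 1 E2F match, at -48 relative to the start in the first window and at -184 in the second. Tdg and the Dnmt1 window shown held none. The third Dnmt1 window held 2, but 166 of its 250 bases lie in exons of another Dnmt1 transcript, so it is not shown. For comparison, 7.89% of the 32851 upstream windows of 250 bases in the table and 9.01% of 27025 genes held an E2F match. The NF-Y letters CCAAT, on either strand, stood in both Uhrf1 windows (1 and 2 matches), in the Tdg window (1) and in 2 of the 3 Dnmt1 windows, against 33.8% of all windows. The ETS letters CCGGAAG, on either strand, stood in none of the members' upstream windows (6.91% of all windows). The upstream windows of Dnmt3a, Dnmt3b, Tet1, Tet2 and Tet3 held no E2F match.

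Library totals ran from 11997186 to 32022325 counts, and levels are given as CPM (counts relative to the library total after TMM, a trimmed-mean scaling), as mean ± SD over the 3 libraries of a population. Libraries of 1 population differed by little more than counting noise (chi-square per gene 1.06 to 1.35) except GMP replicate 1 (up to 1.87), MEP replicate 1 (up to 2.51) and CLP replicate 2 (up to 2.26). When libraries were scaled by their size alone, the log2 change of a gene shifted, in the median over all genes, by -0.99 in MPP against ST-HSC, 0.68 in CMP against MPP, 0.59 in CLP against MPP, -1.17 in GMP against CMP, -0.92 in MEP against CMP, 0.25 in MEP against GMP, 0.30 in CD11b+ cells against GMP, -0.13 in B220+ cells against CLP, -0.16 in CD3e T cells against CLP, and -0.42 in the mature fractions against the stem and multipotent cells, so a fold change here is relative to the bulk of genes and not per cell. With that scaling the share of called genes that were higher was 13% in place of 45.7% in MPP against ST-HSC, 80.8% in place of 50% in CMP against MPP, 68.6% in place of 51.4% in CLP against MPP, 11.7% in place of 43.2% in GMP against CMP, 20% in place of 43.5% in MEP against CMP and 29.5% in place of 46.8% in the mature fractions. Long genes moved together in several comparisons. In CLP against MPP the median log2 change was 0.79 among the 4939 genes with the most exon sequence and -0.61 among the 4939 with the least, and 5 of the 9 members are in the long group (over 5835 bases: Dnmt1, Dnmt3a and the 3 TET genes). Values after removal of this trend and that on GC content are therefore given wherever they turn a direction. In bulk samples, fewer cells of a type and less RNA per cell cannot be told apart. Marker lists matched the labels LT-HSC (8 of 8 stem cell genes at 10 CPM or more, but also 7 of 7 stromal genes, summing to 3300 CPM), GMP (granulocyte-monocyte progenitor genes summing to 102000 to 106000 CPM), MEP (erythroid genes, 33600 to 35400 CPM), CD11b+ (neutrophil genes, 201000 to 204000 CPM), B220+ (7 of 7 B cell genes, 8350 to 8500 CPM) and CD3e T cells (7 of 7 T cell genes, 2630 to 2650 CPM). In the B220+ libraries the neutrophil genes summed to 9310 to 9660 CPM, above the B cell genes. The CD3e T cell libraries also carried mast cell, basophil and eosinophil genes (6400 to 6430 CPM) and erythroid genes (4730 to 4810 CPM). They carried neutrophil and plasma cell genes at the sums given below. Each of these 4 sums was above that of the T cell genes, and the macrophage genes had 1910 to 1940 CPM. The CLP libraries carried all 6 mast cell, basophil and eosinophil genes (summed 9160 to 9590 CPM) and 6 of 7 stromal genes (2120 to 2230 CPM), with B and T cell genes summing to 29.9 to 30.9 and 16.8 to 19.4 CPM and none of these lists holding a gene at 0. The MPP libraries carried all 6 mast cell, basophil and eosinophil genes (8680 to 8960 CPM), 4 of 5 plasma cell genes (12800 to 13200 CPM), all 6 macrophage genes (4420 to 4540 CPM) and all 7 granulocyte-monocyte progenitor genes (37700 to 38500 CPM). No marker list was drawn for CLP or MPP themselves.

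Across the hierarchy the 9 genes did not move as a block. Dnmt1, Uhrf1 and Tdg were highest in progenitors and lowest in stem cells and T cells. In CMP, though, Uhrf1 lay below B220+ cells and Tdg below CD11b+ cells. Dnmt3b and Tet1 were highest in stem cells and low in mature fractions, but Dnmt3b was about as high in GMP, and Tet1 was lowest in MEP. Tet2, Tet3 and Mbd2 had their highest level in CLP. The span between the highest and the lowest population mean was 3.63-fold for Dnmt1, 4.13-fold for Tdg, 5.02-fold for Dnmt3a, 5.72-fold for Uhrf1, 9.87-fold for Dnmt3b, 10.7-fold for Tet3, 11.1-fold for Tet1, 18-fold for Tet2 and 24.4-fold for Mbd2. Of the 55 pairs of populations, between 48 (Mbd2) and 53 (Dnmt1, Uhrf1 and Tdg) differed for each gene by edgeR's quasi-likelihood test with Benjamini-Hochberg adjustment at 0.05. The background was high, with 76.7% of all genes and pairs called, so these counts do not set the members apart.

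**Figure D1:**
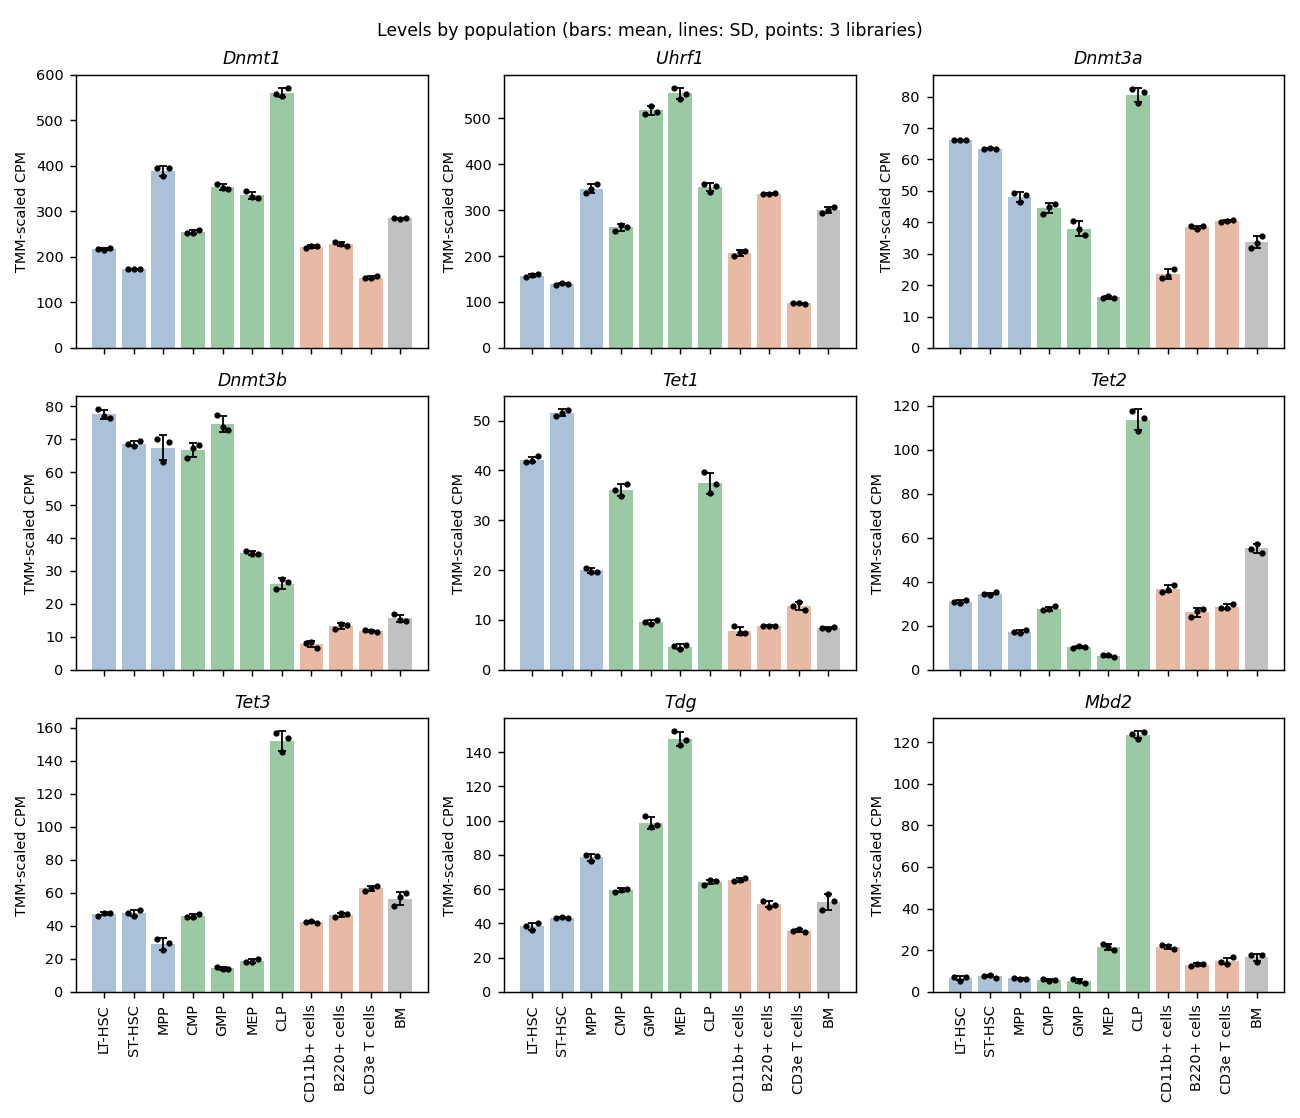
Level of each of the 9 genes in the 11 populations, in TMM-scaled CPM, 1 panel a gene. Bars are means, vertical lines SD, and points the 3 libraries. Tet2, Tet3 and Mbd2 were highest in CLP, as were Dnmt1 and Dnmt3a on this scale (CLP fell below MPP for both without the GC and length trend), Uhrf1 and Tdg in MEP, Dnmt3b in LT-HSC and Tet1 in ST-HSC.

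Dnmt1, the maintenance methyltransferase, had its highest level in CLP, at 557, 552 and 572 CPM in the 3 libraries, but without the GC and length trend it was lower there than in MPP (log2 -0.21; edgeR adjusted p = 5e-12). MPP followed at 389 ± 10, GMP at 353 ± 6.6 and MEP at 335 ± 8.2 CPM, then BM at 285 ± 0.66 and CMP at 254 ± 3.7 CPM. B220+ cells (228 ± 4.7), CD11b+ cells (222 ± 2.9) and LT-HSC (217 ± 1.5 CPM) came next and did not differ between neighbours in this order (edgeR adjusted p = 0.24 and 0.27). ST-HSC at 173 ± 0.81 and CD3e T cells at 155 ± 2.9 CPM were lowest. All other neighbours in the order differed. Per kilobase of exon, the scale on which genes can be compared, Dnmt1 ranged between 21 ± 0.39 in CD3e T cells and 75.9 ± 1.4 CPM per kb in CLP.

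Uhrf1, the partner that leads DNMT1 to hemimethylated DNA, peaked elsewhere. It was highest in MEP, at 567, 542 and 552 CPM, and in GMP, at 509, 527 and 514 CPM, with no overlap between these libraries. CLP (350 ± 9.0), MPP (347 ± 10) and B220+ cells (335 ± 1.3 CPM) formed a middle group in which neighbours did not differ (edgeR adjusted p = 0.67 for CLP against MPP and 0.086 for MPP against B220+). BM at 301 ± 6.6, CMP at 262 ± 7.0 and CD11b+ cells at 207 ± 6.2 CPM were lower, and LT-HSC (158 ± 3.0), ST-HSC (140 ± 1.8) and CD3e T cells (96.9 ± 1.8 CPM) lowest. The count ratio of Uhrf1 to Dnmt1, which needs no scaling between libraries, was 1.65 in MEP, 1.47 in GMP and 1.47 in B220+ cells, against 0.725 in LT-HSC, 0.627 in CD3e T cells and 0.624 in CLP. The ratio of partner to maintenance enzyme thus differed between populations; it is not corrected for the GC and length trend. Of the 50-base runs of Uhrf1 transcripts, 18.9% recur in other genes, but the counts given to the copy Gm5648 were at most 0.334% of those of Uhrf1.

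Dnmt3a, the de novo methyltransferase that restrains stem cell self-renewal in mice, was highest in CLP (82.3, 78.0 and 81.5 CPM) and next in the stem cells, but without the GC and length trend CLP lay below MPP (log2 -0.27; edgeR adjusted p = 7.1e-09). LT-HSC had 66.3, 66.0 and 66.1 CPM and ST-HSC 63.2, 63.8 and 63.4 CPM; these libraries did not overlap, but the pair did not pass the test (edgeR adjusted p = 0.094). MPP at 48.2 ± 1.6 and CMP at 44.5 ± 1.5 CPM followed. CD3e T cells (40.4 ± 0.27), B220+ cells (38.4 ± 0.49) and GMP (38.0 ± 2.3 CPM) did not differ between neighbours (adjusted p = 0.14 and 0.84). BM had 33.6 ± 2.0 and CD11b+ cells 23.5 ± 1.5 CPM, and MEP was lowest at 16.0, 16.5 and 15.7 CPM.

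Dnmt3b, the other de novo enzyme, split the populations into a high and a low group. LT-HSC (77.6 ± 1.3) and GMP (74.6 ± 2.5 CPM) did not differ (edgeR adjusted p = 0.18), and neither did the neighbours ST-HSC (68.6 ± 0.84), MPP (67.4 ± 3.8) and CMP (66.6 ± 2.1 CPM; adjusted p = 0.64 and 0.71). MEP had 35.4 ± 0.49 and CLP 26.2 ± 1.6 CPM. BM (15.6 ± 1.1), B220+ cells (13.3 ± 0.79), CD3e T cells (11.9 ± 0.33) and CD11b+ cells (7.85 ± 0.98 CPM) were lowest, all neighbours among them differing. Part of the reads is uncertain, because 11.5% of the 50-base runs of Dnmt3b recur in its paralog Dnmt3c, to which counts of up to 27.6% of those of Dnmt3b were given in MEP (mean over its libraries).

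The balance of the de novo enzymes separated stem cells, MPP, CMP, GMP and MEP from CLP, the mature fractions and BM. The count ratio of Dnmt3b to Dnmt3a was 1.17 in LT-HSC, 1.08 in ST-HSC, 1.40 in MPP, 1.5 in CMP, 1.96 in GMP and 2.21 in MEP, with single libraries between 1.06 and 2.26. It was 0.325 in CLP, 0.337 in CD11b+ cells, 0.294 in CD3e T cells and 0.347 in B220+ cells, with single libraries between 0.267 and 0.376, and 0.467 in BM. No library of the first 6 populations overlapped any of the others. These ratios are not corrected for the GC and length trend. Without it Dnmt3a and Dnmt3b changed by log2 0.44 and -0.07 in GMP against CMP and by -0.81 and -1.0 in MEP against CMP. The rise of the ratio at these 2 steps was thus not kept. In CLP against MPP the values without the trend were -0.27 for Dnmt3a and -1.58 for Dnmt3b. Per kilobase of exon, Dnmt3a made up 12.2% of the sum of both in MEP, 13.5% in GMP and 22.1% in ST-HSC, against 47.0% in B220+ cells, 48.6% in CLP and 51.1% in CD3e T cells. With the longest coding transcript as the length, a choice made after the data were seen, the ranges were 16.8% to 29.2% and 56.3% to 60.3%, so the even split depends on the length used. A fixed length per gene cannot change the order of the libraries, so the second length does not test the separation.

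**Figure D2:**
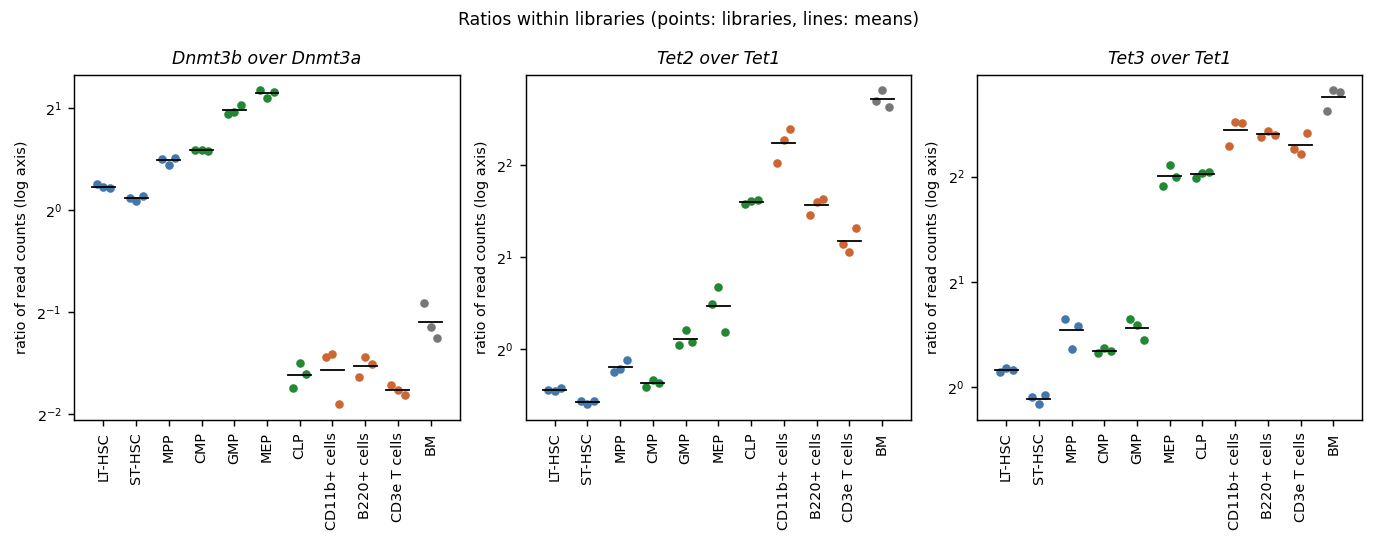
Count ratios Dnmt3b to Dnmt3a, Tet2 to Tet1 and Tet3 to Tet1 in each of the 33 libraries, on a log axis, by population. The Dnmt3b to Dnmt3a ratio lay above 1 in every library of LT-HSC, ST-HSC, MPP, CMP, GMP and MEP and below 0.54 in every library of CLP, the mature fractions and BM.

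Tet1, the TET enzyme best known from embryonic stem cells, was highest in the stem cells. ST-HSC had 50.8, 51.6 and 52.2 CPM and LT-HSC 41.8, 41.9 and 42.8 CPM. CLP (37.4 ± 2.1) and CMP (36.1 ± 1.2 CPM) came next and did not differ (edgeR adjusted p = 0.32), then MPP at 19.9 ± 0.43 and CD3e T cells at 12.8 ± 0.81 CPM. GMP (9.59 ± 0.35), B220+ cells (8.83 ± 0.095), BM (8.38 ± 0.22) and CD11b+ cells (7.84 ± 0.76 CPM) did not differ between neighbours (adjusted p = 0.30, 0.49 and 0.40). MEP was lowest at 4.63 ± 0.46 CPM, from 104, 50 and 64 counts.

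Tet2, whose loss expands mouse stem cells, and Tet3 both peaked in CLP, far above every other population on this scale. Without the GC and length trend the change from CLP to CD3e T cells was log2 -1.03 for Tet2 but only -0.28 for Tet3. For the B220+ fraction against CLP the values were -1.17 for Tet2 and -0.66 for Tet3. Tet2 had 118, 109 and 115 CPM in CLP, and BM followed at 55.2 ± 2.1 CPM. CD11b+ cells (36.9 ± 1.6) and ST-HSC (34.5 ± 0.60 CPM) did not differ (edgeR adjusted p = 0.064), LT-HSC had 31.1 ± 0.81 CPM, and CD3e T cells (28.8 ± 0.93), CMP (27.9 ± 0.93) and B220+ cells (26.1 ± 1.9 CPM) did not differ between neighbours (adjusted p = 0.51 and 0.12). MPP (17.4 ± 0.64), GMP (10.3 ± 0.46) and MEP (6.33 ± 0.53 CPM) were lowest. So GMP and MEP held the least Tet2, while CD11b+ cells held more than GMP (tested below).

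Tet3 had 157, 146 and 154 CPM in CLP, against 62.8 ± 1.4 CPM in CD3e T cells and 56.5 ± 4.1 CPM in BM. ST-HSC (47.7 ± 1.6), LT-HSC (47.3 ± 0.91), B220+ cells (46.7 ± 1.3) and CMP (45.9 ± 1.1 CPM) did not differ between neighbours (edgeR adjusted p = 0.80, 0.74 and 0.60). CD11b+ cells had 42.4 ± 0.70, MPP 29.0 ± 3.5, MEP 18.6 ± 1.3 and GMP 14.2 ± 0.73 CPM. Tet2 and Tet3 shared their order to a large part: over the 11 population means in log2 CPM their Pearson r was 0.934 and Spearman rho 0.782, a description over points that share libraries and depth.

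The makeup of the TET family also differed between these groups of populations. The count ratio of Tet2 to Tet1 was between 0.669 (ST-HSC) and 1.38 (MEP) in the stem cells and the myeloid and erythroid progenitors, and 3.04 in CLP, 4.74 in CD11b+ cells, 2.96 in B220+ cells, 2.26 in CD3e T cells and 6.60 in BM. The ratio of Tet3 to Tet1 was 0.925 in ST-HSC, 1.12 in LT-HSC, 1.27 in CMP, 1.45 in MPP and 1.48 in GMP, but 4.03 in MEP, close to the 4.07 in CLP. Per kilobase of exon, Tet1 made up 40.5% of the 3 TET genes in ST-HSC and 36.9% in LT-HSC, against 13.3% in CLP, 13.1% in CD3e T cells, 11.6% in B220+ cells and 9.70% in CD11b+ cells. Tet3 had the highest mean per kilobase of the 3 in every population but ST-HSC, narrowly so in LT-HSC and BM. In MEP it made up 62.2%.

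Tdg, the glycosylase that cuts out oxidised methylcytosine, followed the order of Uhrf1 at its top. MEP had 152, 144 and 147 CPM, GMP 98.7 ± 3.4 and MPP 78.6 ± 2.0 CPM. CD11b+ cells (65.5 ± 1.1) and CLP (64.2 ± 1.3 CPM) did not differ (edgeR adjusted p = 0.55), and neither did BM (52.8 ± 4.7) and B220+ cells (51.2 ± 1.7 CPM; adjusted p = 0.23), with CMP between them at 59.5 ± 0.93 CPM. ST-HSC (43.3 ± 0.18), LT-HSC (38.3 ± 1.9) and CD3e T cells (35.8 ± 0.95 CPM) were lowest, LT-HSC and CD3e T cells passing the test (adjusted p = 0.026) with overlapping libraries. The Tdg counts are uncertain, since 66.3% of its 50-base runs recur in 5 other genes; the copy Gm9855 took counts of up to 10.8% of those of Tdg (ST-HSC, mean over its libraries). Strand use in counting is not given, so reads of Tdg and of genes that overlap it, such as Glt8d2 (at most 4.31% of the Tdg counts), cannot be told apart. The same holds for the antisense genes of Dnmt3a and Dnmt3b (at most 0.806% and 1.85%) and the overlapping genes of Tet1, Tet2 and Tet3 (at most 6%, 1.79% and 6.59%).

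Mbd2, the reader that links methylated CpG sites to NuRD, had the widest span. CLP stood alone at 124, 122 and 125 CPM. CD11b+ cells (21.6 ± 1.1) and MEP (21.5 ± 1.5 CPM) did not differ (edgeR adjusted p = 0.90), nor did BM (16.5 ± 1.8) and CD3e T cells (14.9 ± 1.5 CPM; adjusted p = 0.081), and B220+ cells had 13.0 ± 0.60 CPM. ST-HSC (7.39 ± 0.53), MPP (6.45 ± 0.30), LT-HSC (6.44 ± 0.99), CMP (5.64 ± 0.68) and GMP (5.07 ± 1.0 CPM) lay close together, the GMP value resting on 70, 79 and 39 counts. In that low group ST-HSC against MPP (adjusted p = 0.11), MPP against LT-HSC (0.82) and CMP against GMP (0.38) did not pass, and LT-HSC against CMP did (0.024) with overlapping libraries.

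**Figure D3:**
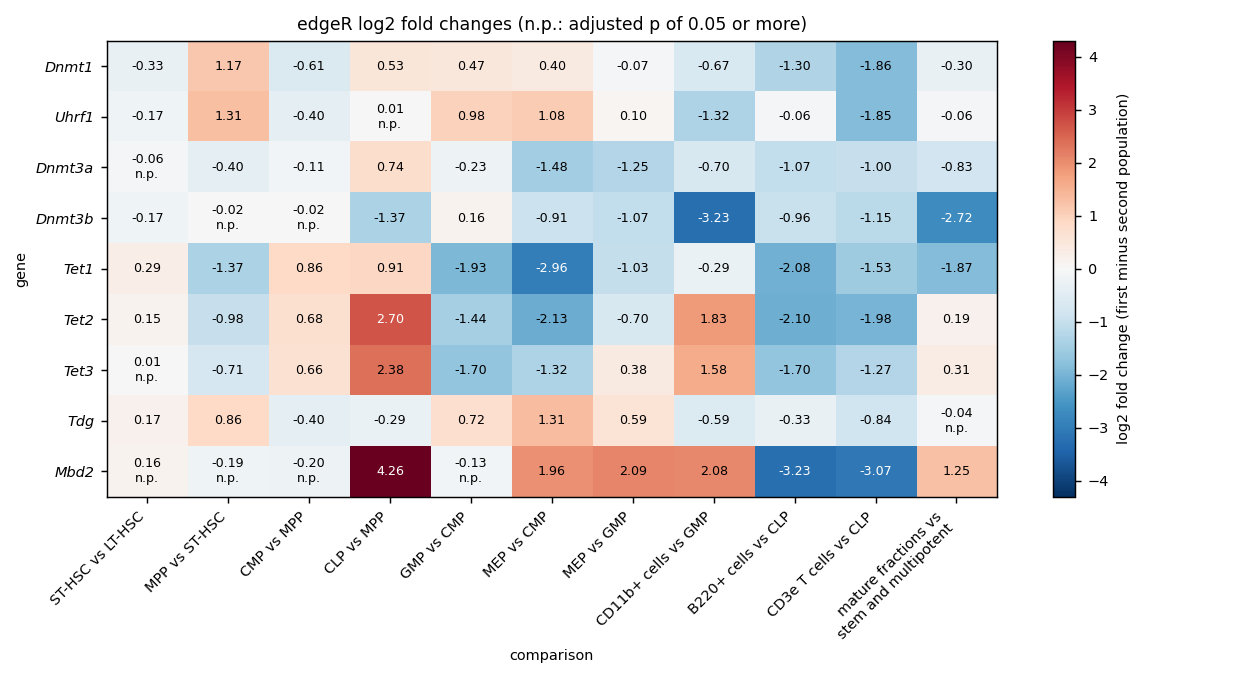
Log2 fold change of each gene in the 11 comparisons, first-named population minus second-named, from the edgeR fit; n.p. marks an adjusted p of 0.05 or more. All 9 genes were lower in CD3e T cells than in CLP, as they were in B220+ cells, where the direction of Uhrf1 turned under 3 alternatives. Other squares whose sign turns under an alternative, such as Dnmt1 in GMP and MEP against CMP with library size alone, are named in the text.

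Between the stem cell fractions the changes were small. In ST-HSC against LT-HSC 3 of the 9 genes were higher (29.8% of all genes tested were) and 3 lower (34.1%). Tet1 rose 1.22-fold (log2 0.29; edgeR adjusted p = 4.3e-12), Tet2 by 0.15 on the log2 scale (adjusted p = 0.0013) and Tdg by 0.17 (7.9e-05). Dnmt1 was 1.26-fold lower (log2 -0.33, SE 0.025; adjusted p = 9.4e-23), and Dnmt3b and Uhrf1 each fell by 0.17 on the log2 scale (9.4e-07 and 3.3e-08). With the GC and length trend taken out 6 members were higher and 2 lower: Dnmt1 changed by -0.17 and Uhrf1 by -0.06, Dnmt3b at -0.06 did not pass (0.083), and Mbd2 (0.28), Tet3 (0.19) and Dnmt3a (0.09) now passed as higher. None of the changes with TMM scaling alone reached 1.3-fold, while the libraries did not overlap for Dnmt1 (173.9, 173.3 and 172.3 CPM in ST-HSC, against 217.9, 215.6 and 218.5 CPM in the LT-HSC libraries). Of 20 mitosis genes 14 fell and 2 rose (median log2 change -0.19, against -0.01 over all genes), and of 20 DNA replication genes 9 fell and 6 rose (median -0.06). Usp7, which stabilises UHRF1 and DNMT1, rose 1.47-fold, to 46.2 ± 0.076 CPM in ST-HSC, against 31.6 ± 0.64 CPM in LT-HSC. The stromal genes summed to 288 CPM in ST-HSC, against 3300 CPM in the LT-HSC libraries, the megakaryocyte genes to 45.6 to 46.9 CPM in ST-HSC, against 1150 to 1160 CPM in LT-HSC, and the macrophage genes to 1010 to 1030 CPM in ST-HSC, against 411 to 429 CPM in LT-HSC; their part in the result was not tested.

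At the step to multipotent progenitors the copying genes rose and the TET genes fell. In MPP against ST-HSC 3 of 9 members were higher (33.6% of all genes) and 4 lower (40.0%). Uhrf1 had 337, 345 and 357 CPM in MPP and 138, 142 and 140 CPM in ST-HSC, 2.48-fold higher (log2 1.31, SE 0.028; edgeR adjusted p = 4.5e-74). Dnmt1 had 394, 377 and 396 CPM in MPP and 174, 173 and 172 CPM in ST-HSC, 2.25-fold higher (log2 1.17, SE 0.026; adjusted p = 7.4e-72). Neither pair of populations overlapped. Tdg rose 1.82-fold (log2 0.86, SE 0.040; adjusted p = 7.6e-41), a direction that turned to -0.13 when libraries were scaled by size alone. With that scaling the changes of Uhrf1 and Dnmt1 were 0.32 and 0.18. Tet1 had 20.4, 19.7 and 19.7 CPM in MPP and 50.8, 51.6 and 52.2 CPM in ST-HSC, 2.59-fold lower (log2 -1.37, SE 0.051; adjusted p = 1.4e-49). Tet2 was 1.97-fold lower (log2 -0.98; adjusted p = 1e-31) and Tet3 1.64-fold lower (log2 -0.71; adjusted p = 1e-25); with the GC and length trend taken out the falls of Tet1, Tet2 and Tet3 were -0.67, -0.30 and -0.15. Dnmt3a was 1.32-fold lower (log2 -0.40; adjusted p = 2.4e-16) but changed by 0.12 without that trend.

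The genes around them moved as follows. All 20 DNA replication genes and all 20 mitosis genes rose relative to the bulk of genes (median log2 change 1.0 and 1.40, against -0.11 over all genes), Mcm6 of the replicative helicase 3.43-fold, to 1479 ± 17 CPM in MPP, against 431 ± 6.0 CPM in ST-HSC. Library size alone shifted the change of a gene by -0.99 in the median here, about the size of the replication median. Of 12 further writers and partners of methylation 6 rose and 6 fell (median 0.09, but -0.90 with library size alone), with Cdca7, a partner of the chromatin remodeller HELLS, 2.19-fold higher and Usp7 1.89-fold lower. Of 9 MBD or zinc finger family genes, not all of which need be methyl-CpG readers, 7 fell and 1 rose (median -0.68), with Mbd6 2.46-fold lower. Of 10 genes of TET cofactor supply and regulation 4 rose and 5 fell: Idh1, which makes oxoglutarate in the cytosol, rose 4.47-fold, to 150 ± 6.3 CPM in MPP, against 33.6 ± 0.18 CPM in ST-HSC, and Ogt, the glycosyltransferase that binds TET proteins, was 2.06-fold lower. Of 13 base excision repair genes 8 rose and 3 fell (median 0.69), Apex1, the endonuclease that acts after glycosylases, 2.64-fold. Of 12 methyl donor genes 8 rose and 2 fell (median 0.58), Ahcy, which clears the product of methylation reactions, 2.91-fold. With library size alone the medians of the base excision repair and methyl donor lists were -0.31 and -0.41. In these libraries the mast cell, basophil and eosinophil genes summed to 8680 to 8960 CPM in MPP and 28.6 to 30.1 CPM in ST-HSC, the plasma cell genes to 12800 to 13200 CPM in MPP and 261 to 265 CPM in ST-HSC, the macrophage genes to 4420 to 4540 CPM in MPP and 1010 to 1030 CPM in ST-HSC, and the granulocyte-monocyte progenitor genes to 37700 to 38500 CPM in MPP and 305 to 315 CPM in ST-HSC; their part in the result was not tested.

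In CMP the TET genes were higher than in MPP, and the copying genes lower relative to the bulk of genes, a direction that turned with library size alone. In CMP against MPP 3 of 9 members were higher (35.0% of all genes) and 4 lower (also 35.0%), and with library size alone the signs of 6 turned, those of Dnmt3b and Mbd2, which had not passed, among them (0.67 and 0.48). Tet1 was 1.82-fold higher (log2 0.86; edgeR adjusted p = 6e-29), at 36.1, 34.9 and 37.3 CPM in CMP and 20.4, 19.7 and 19.7 CPM in MPP. Tet2 was 1.60-fold higher (log2 0.68; adjusted p = 6.5e-19) and Tet3 1.58-fold (log2 0.66; adjusted p = 1.4e-22); with that trend removed Tet1, Tet3 and Tet2 changed by 0.26, 0.21 and 0.12, the last no longer passing (0.063). Dnmt1 was 1.53-fold lower (log2 -0.61; adjusted p = 1.1e-44), Uhrf1 1.32-fold lower (log2 -0.40; adjusted p = 7.7e-28) and Tdg 1.32-fold lower (log2 -0.40; adjusted p = 2.8e-17), but with library size alone they changed by 0.07, 0.28 and 0.28. Dnmt3a was 1.08-fold lower (adjusted p = 0.019), changed by 0.57 with library size alone, and did not pass without MPP replicate 1 (0.073) or CMP replicate 1 (0.064). Of the DNA replication genes 11 fell and 5 rose (median -0.23, against 0.01 over all genes and 0.45 with library size alone). Idh1 was 5.73-fold lower (26.1 ± 0.63 CPM in CMP, 150 ± 6.3 CPM in MPP), Mat2a, which makes the methyl donor, 2.17-fold lower, and Gadd45b, a stress gene tied to demethylation by repair, 6.01-fold higher. The sums of other lineages' genes differed too: granulocyte-monocyte progenitor genes had 1390 to 1410 CPM in CMP and 37700 to 38500 CPM in MPP, mast cell, basophil and eosinophil genes 25.8 to 30.3 CPM in CMP and 8680 to 8960 CPM in MPP, plasma cell genes 289 to 292 CPM in CMP and 12800 to 13200 CPM in MPP, and macrophage genes 15 to 25.5 CPM in CMP and 4420 to 4540 CPM in MPP. Their part in the result was not tested.

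GMP held little TET mRNA and much Uhrf1. In GMP against CMP 4 of 9 members were higher (31.8% of all genes) and 4 lower (41.9%). Tet1 had 9.54, 9.25 and 9.96 CPM in GMP and 36.1, 34.9 and 37.3 CPM in CMP, 3.80-fold lower (log2 -1.93, SE 0.070; edgeR adjusted p = 2.1e-50). Tet3 was 3.25-fold lower (log2 -1.70; adjusted p = 4e-48) and Tet2 2.70-fold lower (adjusted p = 1.5e-36), with values of -0.90, -1.08 and -0.40 for Tet1, Tet3 and Tet2 without the GC and length trend. These falls kept their direction under all alternatives. Uhrf1 was 1.97-fold higher (log2 0.98; adjusted p = 9.7e-64), Tdg 1.65-fold (adjusted p = 1.2e-35), Dnmt1 1.39-fold (log2 0.47; adjusted p = 8.2e-34) and Dnmt3b 1.12-fold (log2 0.16; adjusted p = 0.00022), but with library size alone these 4 changed by -0.19, -0.45, -0.70 and -1.01, and Dnmt3b by -0.07 without the GC and length trend. Dnmt3a was 1.17-fold lower (log2 -0.23; adjusted p = 8.1e-06) and changed by 0.44 without that trend. Of the DNA replication genes 17 rose and 3 fell (median 0.89, against -0.22 over all genes and -0.28 with library size alone). Idh1 was 9.05-fold higher in GMP, at 237 ± 5.4 CPM against 26.1 ± 0.63 CPM in CMP, Ahcy 4.46-fold higher, and Setd2, whose histone mark recruits DNMT3 enzymes, 3.18-fold lower.

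MEP had the lowest Tet1, Tet2 and Dnmt3a of all populations and the highest Uhrf1 and Tdg. In MEP against CMP 4 of 9 members were higher (34.1% of all genes) and 5 lower (44.3%). Tet1 was 7.77-fold lower (log2 -2.96, SE 0.077; edgeR adjusted p = 4.6e-65), at 4.76, 4.12 and 5.01 CPM in MEP and 36.1, 34.9 and 37.3 CPM in CMP. Tet2 was 4.39-fold lower (log2 -2.13; adjusted p = 1e-50), Dnmt3a 2.79-fold (log2 -1.48, SE 0.055; adjusted p = 8e-50), Tet3 2.49-fold (log2 -1.32; adjusted p = 1.1e-43) and Dnmt3b 1.88-fold (log2 -0.91; adjusted p = 2.2e-39), none of them overlapping. All 5 kept their direction under the alternatives, with -2.23, -1.35, -0.81, -0.64 and -1.0 without the GC and length trend. Mbd2 was 3.90-fold higher (log2 1.96, SE 0.086; adjusted p = 8.1e-40), Tdg 2.49-fold (adjusted p = 3.7e-65) and Uhrf1 2.11-fold (log2 1.08; adjusted p = 2.4e-69), with 1.04, 0.40 and 0.16 for Mbd2, Tdg and Uhrf1 under library size alone. Dnmt1 was 1.32-fold higher (log2 0.40; adjusted p = 4.8e-29) but -0.52 under that scaling.

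Around them 19 of 20 DNA replication genes rose and 1 fell (median 1.49, against -0.25 over all genes), Rrm2, a subunit of the enzyme that makes deoxynucleotides, 5.27-fold. Mthfd1, which carries folate carbon units for nucleotide and methyl donor synthesis, rose 8.78-fold, to 1758 ± 35 CPM in MEP, against 200.1 ± 1.7 CPM in CMP, and of the 12 methyl donor genes 8 rose and 2 fell (median 0.83, but -0.09 with library size alone). Cxxc5, a CXXC-domain protein known to bind TET enzymes, was 21.5-fold lower (1.56 ± 0.43 CPM in MEP, 34.9 ± 0.93 CPM in CMP), and Gadd45b was 14.3-fold lower while Gadd45a was 5.70-fold higher.

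Set directly against GMP, MEP differed in all 9 genes, 4 higher (31.3% of all genes) and 5 lower (31.1%). Mbd2 was 4.27-fold higher (log2 2.09; edgeR adjusted p = 1.2e-33), Tdg 1.51-fold (log2 0.59; adjusted p = 1.4e-30), Tet3 1.30-fold (log2 0.38; adjusted p = 3.8e-05) and Uhrf1 1.07-fold (log2 0.10; adjusted p = 0.00034). Dnmt3a was 2.38-fold lower (log2 -1.25; adjusted p = 1.6e-36), Dnmt3b 2.10-fold (log2 -1.07; adjusted p = 2.2e-41), Tet1 2.04-fold (log2 -1.03; adjusted p = 1.6e-13) and Tet2 1.62-fold (log2 -0.70; adjusted p = 2.3e-08). Both de novo enzymes were thus lower in MEP than in GMP. Dnmt1 was 1.05-fold lower (log2 -0.07; adjusted p = 0.016), a call that was lost without GMP replicate 1 (0.075), MEP replicate 2 (0.08) or MEP replicate 3 (0.095) and a sign that turned under library size alone (0.18) and without the GC and length trend (0.10). The sum of erythroid genes was 33600 to 35400 CPM in MEP. Megakaryocyte genes summed to only 41.2 to 44.4 CPM in MEP, against 93.2 to 95 CPM in GMP.

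In CD11b+ cells, set against GMP, de novo and copying enzymes fell and Tet2, Tet3 and Mbd2 rose. Of the 9 members 3 were higher (41.3% of all genes) and 6 lower (32.8%). Dnmt3b had 8.23, 8.59 and 6.74 CPM in CD11b+ cells and 77.4, 73.6 and 72.8 CPM in GMP, 9.38-fold lower (log2 -3.23, SE 0.066; edgeR adjusted p = 8.6e-76). Uhrf1 was 2.50-fold lower (log2 -1.32; adjusted p = 2.4e-74), Dnmt3a 1.63-fold (log2 -0.70; adjusted p = 4.7e-21), Dnmt1 1.59-fold (log2 -0.67; adjusted p = 5.7e-45) and Tdg 1.51-fold (log2 -0.59; adjusted p = 1.4e-26), all with libraries that did not overlap. Tet1 was 1.22-fold lower (log2 -0.29; adjusted p = 0.011), which was -0.99 without the GC and length trend (1.1e-14), turned to 0.01 under library size alone and did not pass without GMP replicate 3 (0.07), CD11b+ replicate 2 (0.088) or CD11b+ replicate 3 (0.077). Tet2 had 35.6, 36.4 and 38.6 CPM in CD11b+ cells and 9.81, 10.7 and 10.49 CPM in GMP, 3.55-fold higher (log2 1.83; adjusted p = 1.5e-45), or 1.09 on the log2 scale without that trend. Tet3 was 3-fold higher (log2 1.58; adjusted p = 3.2e-42) and Mbd2 4.23-fold (log2 2.08; adjusted p = 9.9e-34), and these 3 rises kept their direction under all alternatives. Of the DNA replication genes 18 fell and 2 rose (median -1.13, against 0.25 over all genes). Among the TET cofactor genes 6 fell and 2 rose (median -1.11), Idh2, the mitochondrial source of oxoglutarate, 23.3-fold lower (126 ± 4.2 CPM in CD11b+ cells, 2932 ± 110 CPM in GMP), while Ogt rose 3.47-fold. All 12 methyl donor genes changed, 9 lower and 3 higher, with Ahcy 17.1-fold lower.

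CLP stood apart for Tet2, Tet3 and Mbd2. In CLP against MPP 6 of 9 members were higher (39.6% of all genes) and 2 lower (37.4%). Mbd2 had 124, 122 and 125 CPM in CLP and 6.79, 6.34 and 6.22 CPM in MPP, 19.2-fold higher (log2 4.26, SE 0.066; edgeR adjusted p = 1.7e-79). Tet2 was 6.50-fold higher (log2 2.70, SE 0.049; adjusted p = 4.9e-81) and Tet3 5.22-fold (log2 2.38, SE 0.044; adjusted p = 2.2e-80). With the GC and length trend taken out these 3 changes were 4.08, 1.61 and 1.27, and with library size alone 4.85, 3.29 and 2.97. Dnmt3b had 24.4, 27.4 and 26.7 CPM in CLP and 70.0, 63.1 and 69.3 CPM in MPP, 2.58-fold lower (log2 -1.37, SE 0.048; adjusted p = 1.5e-52), and kept its direction under all alternatives. Tet1 was 1.88-fold higher (log2 0.91; adjusted p = 3.7e-30), Dnmt3a 1.67-fold (log2 0.74; adjusted p = 8.9e-35) and Dnmt1 1.44-fold (log2 0.53; adjusted p = 1.1e-40), but without the GC and length trend they changed by -0.16, -0.27 and -0.21. Tdg was 1.22-fold lower (log2 -0.29; adjusted p = 7e-11), or 0.30 on the log2 scale under library size alone, and Uhrf1 did not pass (log2 0.01; adjusted p = 0.67).

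Most further writers, partners and MBD or zinc finger family genes rose in CLP too, while the other lists of the pathway were split. Of the 12 further writers and partners 8 rose and 3 fell (median 1.65, against 0.00 over all genes and 0.61 without the GC and length trend). Of the 9 MBD or zinc finger family genes 8 rose and 1 fell (median 1.67, or 0.97 without the trend). Usp7 was 12-fold higher (294 ± 9.1 CPM in CLP, 24.4 ± 0.011 CPM in MPP), Mbd6, a relative of Mbd2, 24.0-fold higher (143 ± 5.7 CPM in CLP, 6.02 ± 0.57 CPM in MPP), and Ogt 3.26-fold higher. Idh2 was 6.25-fold lower, Cdca7 2.53-fold lower and Zbtb38, a methyl-CpG zinc finger protein, 2.88-fold lower. The DNA replication list was split, with 9 higher and 9 lower. So were the TET cofactor genes (3 higher, 4 lower, median -0.01) and the base excision repair genes (4 higher, 5 lower, median -0.003). Of the methyl donor genes 6 were higher and 6 lower (median -0.063). The mast cell, basophil and eosinophil genes stood at 9160 to 9590 CPM in CLP and 8680 to 8960 CPM in MPP, and the stromal genes at 2120 to 2230 CPM in CLP and 210 to 216 CPM in MPP; their part in the result was not tested.

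All 9 genes were lower in the mature lymphoid fractions than in CLP, though for Uhrf1 in B220+ cells the direction turned under 3 alternatives. In B220+ cells against CLP 42.5% of all genes were lower and 39.5% higher, and in CD3e T cells against CLP 41.7% were lower and 40.5% higher. The CLP libraries serve both comparisons, so a high CLP level enters each of them. Mbd2 was 9.42-fold lower in B220+ cells (edgeR adjusted p = 1.9e-80) and 8.39-fold lower in CD3e T cells (log2 -3.07; adjusted p = 3.4e-78). Tet2 was 4.29-fold lower in B220+ cells (log2 -2.10; adjusted p = 1e-79) and 3.96-fold lower in CD3e T cells (log2 -1.98; adjusted p = 9.8e-77). Tet1 was 4.22-fold and Tet3 3.25-fold lower in B220+ cells (adjusted p = 3.5e-61 and 1.2e-74), and in CD3e T cells 2.90-fold and 2.42-fold lower (1.4e-50 and 3.1e-63). Without the GC and length trend the changes of Tet1, Tet2 and Tet3 were -1.16, -1.17 and -0.66 in the B220+ fraction, and -0.59, -1.03 and -0.28 in CD3e T cells. The mature cells differed in how far the copying genes went down. Dnmt1 had 233, 227 and 224 CPM in B220+ cells and 557, 552 and 572 CPM in CLP, 2.46-fold lower (log2 -1.30; adjusted p = 3e-79), and 153, 153 and 158 CPM in CD3e T cells, 3.63-fold lower (log2 -1.86; adjusted p = 3e-93); with that trend out the changes were -0.56 in B220+ and -1.19 in CD3e T cells. Uhrf1 was 3.61-fold lower in CD3e T cells (log2 -1.85; adjusted p = 1.9e-87), at 97.0, 98.6 and 95.1 CPM against 356, 340 and 353 CPM in CLP. In B220+ cells it had 334, 335 and 337 CPM, so that B220+ cells kept nearly the CLP level. The difference of -0.06 (adjusted p = 0.02) was 0.06 without the GC and length trend, 0.03 in a fit of these populations only and 0.01 with no filter, and the call was lost without CLP replicate 1 (0.2) or B220+ replicate 1, 2 or 3 (0.12, 0.1 and 0.063).

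The remaining members followed the same direction. Dnmt3a was 2.10-fold lower in B220+ cells (log2 -1.07; edgeR adjusted p = 6.8e-52) and 2-fold lower in CD3e T cells (log2 -1.0; adjusted p = 1.4e-48), with -0.14 and -0.08 without the GC and length trend. Dnmt3b was 1.95-fold lower in B220+ cells (log2 -0.96; adjusted p = 3.3e-30) and 2.21-fold lower in CD3e T cells (adjusted p = 3.3e-34), and Tdg 1.26-fold and 1.79-fold lower (log2 -0.33 and -0.84). Of the 12 further writers and partners 10 fell and 1 rose in each fraction (median -1.45 in B220+ cells, where all genes had -0.04, and -1.61 in CD3e T cells, where all genes had 0.00). Of the DNA replication genes 17 fell and 0 rose in B220+ cells, and all 20 fell in CD3e T cells (median -0.52 and -1.22). Neil1, a glycosylase of base excision repair, rose in B220+ cells, 8-fold (70.4 ± 1.8 CPM in B220+ cells, 8.81 ± 0.03 CPM in CLP). Neutrophil genes summed to 9310 to 9660 CPM in B220+ cells and 13200 to 13400 CPM in CD3e T cells, against 71 to 73.4 CPM in CLP, and plasma cell genes to 16900 to 17100 CPM in CD3e T cells, against 290 to 312 CPM in CLP; their part in the result was not tested. Of 20 mitosis genes 16 fell and 2 rose in B220+ cells against CLP (median -0.49), with Cdc20 1.41-fold higher. Mki67, the proliferation antigen, had the largest fall of that list and so does not stand for it. It was 13.7-fold lower than in CLP in B220+ cells, and 23.9-fold lower in CD3e T cells.

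Over the hierarchy as a whole, the mature fractions (CD11b+, B220+ and CD3e T cells, 9 libraries) were set against the stem and multipotent cells (LT-HSC, ST-HSC and MPP, 9 libraries). Of the 9 members 3 were higher (38.0% of all genes) and 5 lower (43.1%). Dnmt3b averaged 11 CPM in the mature fractions and 71.2 CPM in the stem and multipotent cells, 6.57-fold lower (log2 -2.72, SE 0.031; edgeR adjusted p = 3.7e-102). Tet1 averaged 9.82 CPM in the mature fractions and 37.9 CPM in the stem and multipotent cells, 3.65-fold lower (log2 -1.87; adjusted p = 2.8e-76), and Dnmt3a 34.1 and 59.3 CPM, 1.77-fold lower (log2 -0.83; adjusted p = 3e-58). Mbd2 averaged 16.5 CPM in the mature fractions and 6.76 CPM in the stem and multipotent cells, 2.37-fold higher (log2 1.25; adjusted p = 7.9e-43). No library of 1 side overlapped the other for these 4 genes, and all 4 kept their direction under all alternatives. Tet2, Tet3, Dnmt1 and Uhrf1 passed with libraries that overlapped: Tet2 was 1.14-fold and Tet3 1.24-fold higher (log2 0.19 and 0.31), but -0.23 and -0.12 under library size alone, Dnmt1 was 1.23-fold lower (log2 -0.30; adjusted p = 2.5e-37) and Uhrf1 changed by -0.06 (adjusted p = 0.00038). Tdg did not pass (log2 -0.04; adjusted p = 0.081). Among the TET cofactor genes 8 fell and 2 rose (median -0.72, against -0.11 over all genes), and of the replication genes 16 fell and 3 rose (median -0.46). Genes of other lineages in the B220+, CD3e T cell and MPP libraries, at the sums given above, enter this comparison. Their part in the result was not tested.

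**Figure D4:**
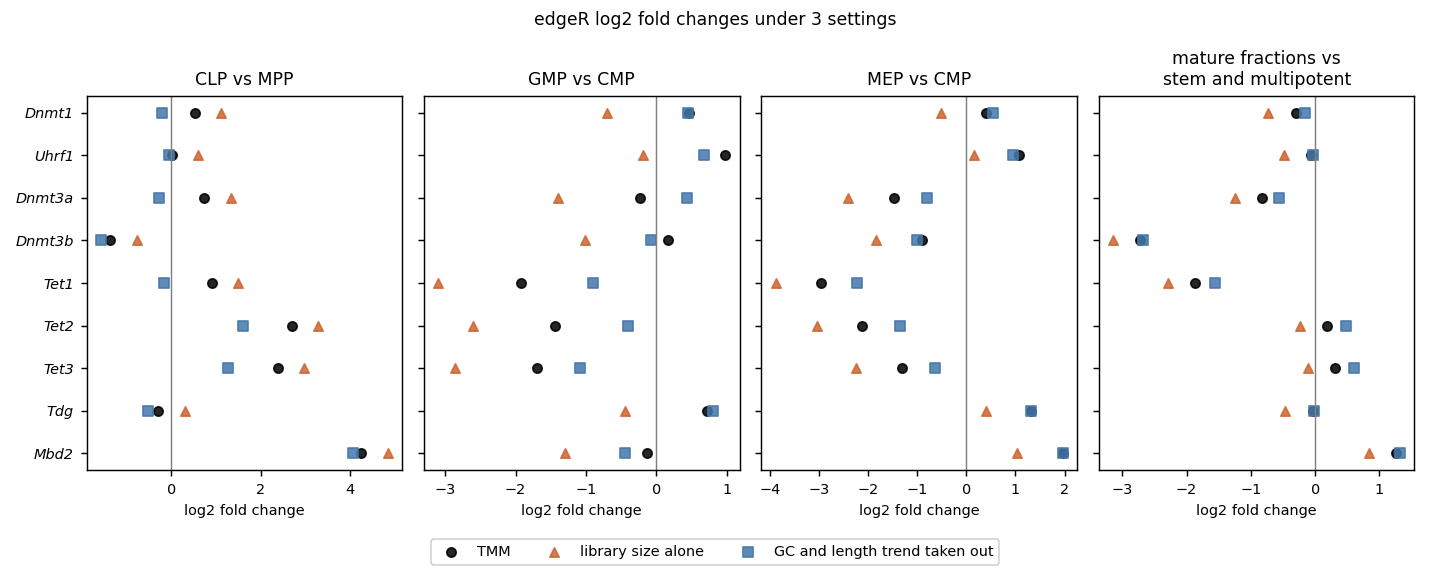
Log2 fold changes of the 9 genes in 4 comparisons (CLP against MPP, GMP against CMP, MEP against CMP, mature fractions against stem and multipotent cells) with TMM scaling, with library size alone, and with the GC and length trend taken out. In MEP against CMP, Tet1, Tet2, Tet3, Dnmt3a and Dnmt3b lay below 0 and Mbd2, Tdg and Uhrf1 above 0 in all 3 settings, while Dnmt1 was at 0.40 with TMM and -0.52 with library size alone. In CLP against MPP, Dnmt1, Dnmt3a, Tet1 and Uhrf1 lay above 0 with TMM and below 0 once the trend was taken out.

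Tdg, Uhrf1 and Dnmt1 had levels that followed those of the DNA replication genes across the populations. The mean level of the 20 replication genes, in log2 CPM, was 5.61 in CD3e T cells, 6.12 in LT-HSC, 6.14 in ST-HSC, 6.24 in B220+ cells, 6.39 in CD11b+ cells, 6.68 in BM, 6.80 in CMP, 7.05 in MPP, 7.06 in CLP, 7.58 in GMP and 8.04 in MEP. Over the 11 population means the Pearson r with this level was 0.952 for Tdg, 0.909 for Uhrf1 and 0.765 for Dnmt1 (Spearman rho 0.927, 0.927 and 0.891). It was lower for the other members, at 0.349 for Dnmt3b, 0.119 for Mbd2, -0.357 for Tet1, -0.400 for Dnmt3a, -0.506 for Tet2 and -0.526 for Tet3. Without CLP, an alternative chosen after the data were seen, the r was 0.961 for Tdg, 0.906 for Uhrf1, 0.871 for Dnmt1, -0.791 for Tet2 and -0.882 for Tet3 over 10 populations. Dnmt3b had its highest r among the lists with the TET cofactor genes, at 0.905 (0.923 without CLP). These correlations describe 11 points that share libraries and depth, and 63 pairs of gene and list were computed. Of the upstream windows printed above for these 3 genes, both of Uhrf1 held E2F letters, and those of Tdg and Dnmt1 did not. The third Dnmt1 window, which is not printed, held 2 matches. These letters say nothing on binding.

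**Figure D5:**
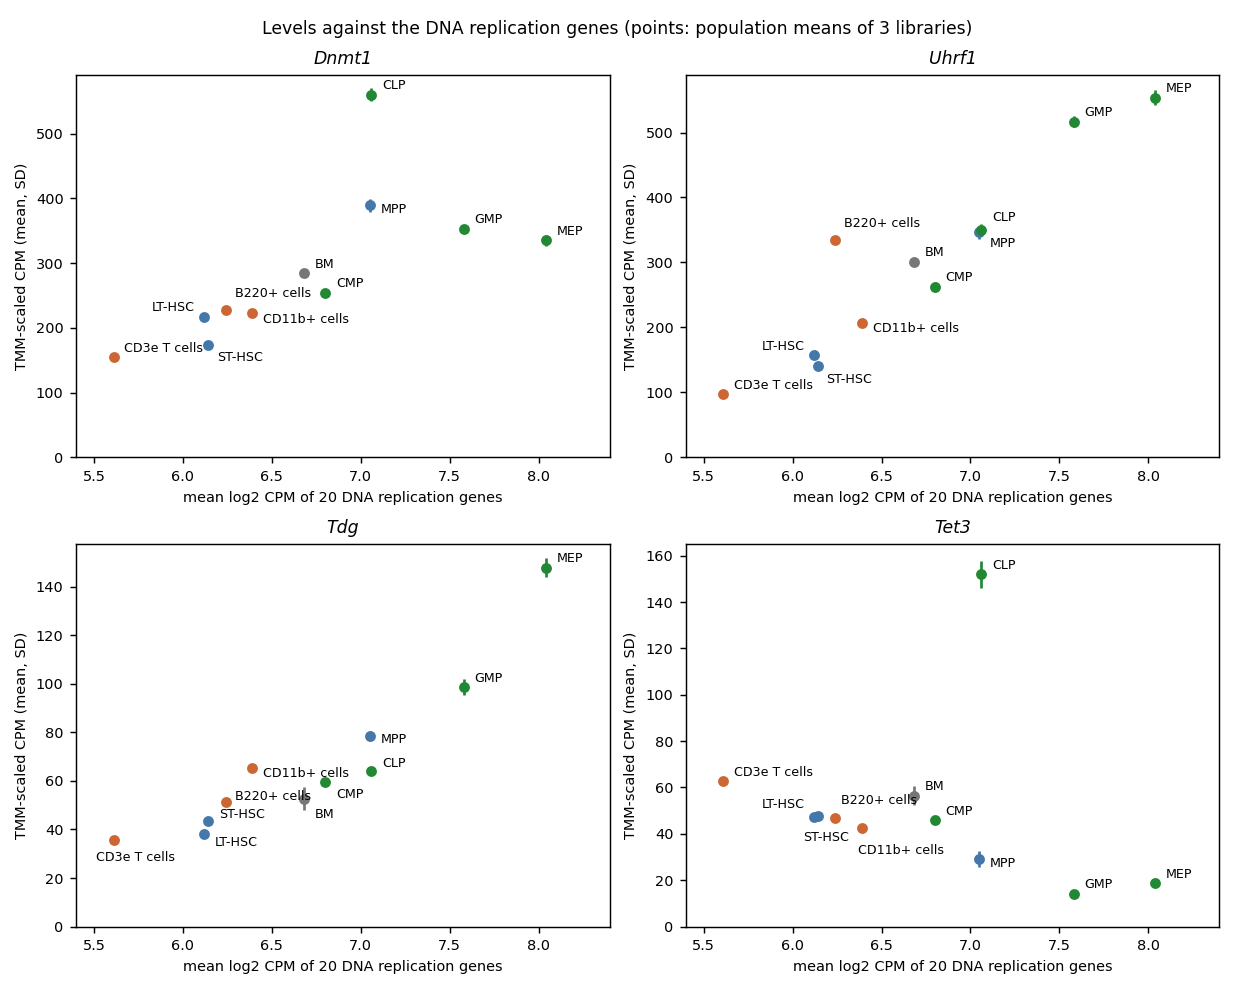
Level of Dnmt1, Uhrf1, Tdg and Tet3 (CPM, means of 3 libraries, 1 point a population) against the mean log2 CPM of 20 DNA replication genes. Uhrf1 and Tdg have their highest value in MEP, where the replication genes are highest too. Dnmt1 and Tet3 have theirs in CLP on this scale, which for Dnmt1 turned against MPP without the GC and length trend, and Tet3 its lowest in GMP.

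The genes whose pattern over the 11 population means was most like that of each member, by Pearson r of log2 CPM, were, for Dnmt1, Ncapd2 (0.947), Espl1 (0.937) and Wdr62 (0.925). Those for Uhrf1 include Nras (0.939) and Cenpn (0.924), and for Tdg Rrm1 (0.970), Cks2 (0.960) and Suv39h1 (0.954). Rrm1 is also on the replication list. For Dnmt3a they were Elk3 (0.952), Arid1b (0.951) and Smad1 (0.946), and for Dnmt3b Adgrg1 (0.981), Tmem237 (0.971) and Mindy4 (0.967). Adgrg1 encodes the adhesion receptor GPR56, which haematopoietic stem cells carry. For Tet1 they were Impact (0.962), Slc22a17 (0.961) and Ift81 (0.955), for Tet2 Zc3h7a (0.983), Neat1 (0.969) and Abhd2 (0.960), for Tet3 Smg1 (0.990), Macf1 (0.984) and Mycbp2 (0.980), and for Mbd2 Pacs2 (0.984), Usp25 (0.977) and Tmem8 (0.960). Between members the closest pairs were Tet2 with Tet3 (0.934), Dnmt3a with Tet1 (0.888), Uhrf1 with Tdg (0.866) and Dnmt1 with Uhrf1 (0.788).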

How the data were processed

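Polyadenylated RNA of 11 bone marrow populations was sequenced, 3 libraries each, after TRIzol extraction and library construction with a TruePrep kit, per the labels' protocols. The authors deposited 1 table of raw read counts per Ensembl gene ID; the submitters' processing notes name cutadapt, HISAT2, HTSeq, DESeq2 and the build mm39, with versions, annotation release and strand use not given in the sources used here. Symbols, exon lengths and GC content came from GENCODE M21 (GRCm38), which matched 52073 of 56748 IDs, and promoter sequences from RefSeq (GRCm38.p6). Each of the 33 columns matched 1 library by name.

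Genes were filtered with filterByExpr by population (20464 kept), scaled by TMM and fitted together in edgeR 4.0.16 (R 4.3.3; robust glmQLFit, glmQLFTest; each population has its own mean, leaving 22 residual degrees of freedom), with Benjamini-Hochberg adjustment over all genes tested and a threshold of 0.05. Depth was 11997186 to 32022325 counts per library. Members and lists were chosen with earlier results of these data known, so no pattern of theirs is independent support. All 9 members are named. Likeness genes are the 3 with the highest Pearson r of mean log2 CPM (prior 0.5) among genes with 10 CPM or more in a population, leaving out predicted, Rik, mitochondrial and ribosomal protein genes and receptor segments; list genes named are those called with the largest rise or fall per list and comparison, at 10 CPM or more on the higher side; some genes that these rules name are not reported here. Of the 11 genes on the TET cofactor list 10 passed the filter. Alternatives were RLE factors, no scaling beyond library size, dropping the filter, limma-voom (limma 3.58.1, weights for library quality), DESeq2 1.42.0, another dispersion step, a replicate block, removal of the GC and length trend (known for 96.5% of genes), only the populations compared, and leaving out each library; a fit without CLP and a second length were added after the data were seen. The steps were tested on simulated data.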

Additional observations from a re-analysis of the deposited data

How the results depend on the processing

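Of the 99 results (9 genes in 11 comparisons), direction and side of the threshold held for 92 with RLE factors, 76 with library size alone, 93 with no filter, 91 with DESeq2, 97 with limma-voom, all 99 with another dispersion step, 81 with the GC and length trend taken out, 94 in fits of the populations compared only, and 681 of 702 when 1 library was left out; without CLP all 72 of 72 held. The counts of members called and of genes called stayed within 1.5 times in all 185 cases each, which says little on stability. As 6 or more of the 9 members were called in the main fit, their count could not rise further than that. The counts also leave out direction. With library size alone GMP against CMP went from 4 higher and 4 lower members to 0 and 9. CMP against MPP went from 3 and 4 to 9 and 0. Deviations of libraries from different populations correlated weakly in the median. The median correlation was 0.026 over 165 same-numbered pairs, 17 of them over 0.1, and -0.015 over 330 others, 11 of them over 0.1. The share over 0.1 was larger among same-numbered pairs, so the replicate number may pair some libraries. With the replicate block all 99 member results kept their call. It called 13148 genes in ST-HSC against LT-HSC (13078 without the block), 15764 in CLP against MPP (15747) and 16636 in the mature fractions (16602). With library size alone the log2 change turned to -0.13 for Tdg in MPP against ST-HSC, to 0.071, 0.573, 0.665, 0.282, 0.478 and 0.283 for Dnmt1, Dnmt3a, Dnmt3b, Uhrf1, Mbd2 and Tdg in CMP against MPP, to 0.30 for Tdg in CLP against MPP, to -0.70, -1.01, -0.19 and -0.45 for Dnmt1, Dnmt3b, Uhrf1 and Tdg in GMP against CMP, to -0.52 and 0.18 for Dnmt1 in MEP against CMP and against GMP, to 0.014 for Tet1 in CD11b+ cells against GMP, and to -0.23 and -0.12 for Tet2 and Tet3 in the mature fractions. By construction this scaling adds about the same shift to every gene of a comparison. With the GC and length trend taken out it turned to 0.089 for Dnmt3a in ST-HSC against LT-HSC, 0.12 and 0.003 for Dnmt3a and Mbd2 in MPP against ST-HSC, 0.055 for Dnmt3b in CMP against MPP, -0.21, -0.27, -0.05 and -0.16 for Dnmt1, Dnmt3a, Uhrf1 and Tet1 in CLP against MPP, 0.44 and -0.069 for Dnmt3a and Dnmt3b in GMP against CMP, 0.10 for Dnmt1 in MEP against GMP and 0.055 for Uhrf1 in B220+ cells against CLP. RLE factors and DESeq2 turned Tet3 in ST-HSC against LT-HSC (-0.015) and Dnmt3b in CMP against MPP (0.022), no filter turned Uhrf1 in B220+ cells against CLP (0.005), and fits of the populations compared turned Dnmt3b in MPP against ST-HSC (0.018) and Uhrf1 in CLP against MPP (-0.092) and in B220+ cells against CLP (0.03). Leaving out 1 library moved Tet3 in ST-HSC against LT-HSC between -0.015 and 0.039, Uhrf1 in CLP against MPP between -0.014 and 0.035 and Dnmt3b in MPP against ST-HSC between -0.051 and 0.008. For the turned values the cause was not tested. Depth limits Mbd2 in GMP (39 to 79 counts) and Tet1 in MEP (50 to 104 counts).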

Other observations

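Dnmt3c, a paralog of Dnmt3b known in mice for silencing young retrotransposons in male germ cells, is no member of the 9 and was picked after its values were seen. It had 9.77 ± 0.34 CPM in MEP, against 2.83 ± 0.20 CPM in ST-HSC, 2.44 ± 0.53 CPM in CLP, 1.47 ± 0.20 CPM in CMP and under 1 CPM in every other population (SD, n = 3 each). It was 6.81-fold higher in MEP than in CMP (log2 2.77, SE 0.14; edgeR adjusted p = 1.2e-38), where Dnmt3b was 1.88-fold lower, and 6.38-fold higher in ST-HSC than in LT-HSC (log2 2.67, SE 0.21; adjusted p = 2.2e-23). In GMP it had 0 or 1 counts and in B220+ cells 0 to 3 counts per library. The transcripts share sequence with Dnmt3b, so the split of reads between them is uncertain.

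Dnmt3l, the catalytically inactive partner of the de novo enzymes, was found in CD11b+ cells at 3.66 ± 0.60 CPM (42 to 76 counts) and in BM at 1.45 ± 0.34 CPM, and at 0.315 CPM or less in each of the other populations.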
